A study of Mus musculus with 2 samples.

Results

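Intercalated cells are the acid-base cells of the connecting tubule and collecting duct of the kidney. They were taken here as the droplet barcodes, each standing as a rule for 1 cell, that held at least 2 UMIs of Atp6v1g3 and Atp6v0d2 together, with at least 1 of Atp6v1g3, and at most 1 UMI of the 3 macrophage complement genes C1qa, C1qb and C1qc. A UMI is a molecular tag through which each captured RNA molecule is counted once. Barcodes under 200 detected genes, or with over 50% of their UMIs from mitochondrially encoded genes, were left out beforehand. The rule found 111 cells, 44 in the I-PpoI library and 67 in the wild-type library, among 7308 kept of 10804 deposited barcodes. Since Atp6v1g3, Atp6v0d2 and C1q UMIs chose the cells, the levels of these genes are given as a description.

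Kidney cortex of 12-week-old mice was digested to single cells and measured with a droplet kit that tags the 3′ ends of RNA. The I-PpoI library came from mice that express I-PpoI, an endonuclease that cuts DNA at defined sites, in podocytes, the filter cells of the glomerulus, and the other library came from wild-type mice. The promoter behind I-PpoI and the number of mice in each library are not given in the sources used here. With 1 library per group no difference has a replicate check, so no p-value is given, "past 2-fold" is a rule of size, and all intervals (95%) cover counting error only.

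The deposited barcodes held 37811289 UMIs in the I-PpoI library and 27793633 in the wild-type library. The intercalated cells held 952550 UMIs in the I-PpoI library, with a median of 17890 per cell (669 to 61951), and 1348822 in the wild-type library, with a median of 13552 (531 to 123548). The median mitochondrial share of their UMIs was 8.04% in I-PpoI cells and 19.0% in wild-type cells. The libraries shared 6 barcode sequences, none of them in an intercalated cell. Levels below are CPM, counts of a gene per 1000000 UMIs, over the summed cells of a library.

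Intercalated cells pump protons with a V-type ATPase, whose V1 sector splits ATP and whose V0 sector carries the protons across the membrane. Type A cells secrete acid through a pump on the urine side and return bicarbonate to the blood through the exchanger AE1, encoded by Slc4a1. Type B cells secrete bicarbonate through pendrin, encoded by Slc26a4. The same cells take part in the defence of the urinary tract against bacteria.

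Genes that the rule did not use marked the cells as intercalated in both libraries. Foxi1, a forkhead transcription factor without which mice form no mature intercalated cells, was detected in 36 of 44 I-PpoI cells and in 45 of 67 wild-type cells. Its level was 393 CPM in I-PpoI intercalated cells against 2.63 CPM in the other I-PpoI barcodes, and 260 CPM in wild-type intercalated cells against 0.314 CPM in the other wild-type barcodes. After thinning to 5000 UMIs per cell, Foxi1 was found in 73.0% of 37 I-PpoI and 53.3% of 45 wild-type intercalated cells, and in 0 of 260 I-PpoI and 0 of 191 wild-type endothelial cells, a type that should lack it, which allows shares of up to 1.15% and 1.57%. The 20 genes most selective for the cells in both libraries were Slc26a4, Aqp6, Slc4a1, Asb15, Cpsf4l, Atp6v1c2, Foxi1, 2610016A17Rik, Hepacam2, Insrr, Dmrt2, Guca2a, Cspg5, Slc4a9, Avpr1a, Oxgr1, Aldh1l2, Kit, Sh2d4b and Wscd2. Aqp6, a water and anion channel of intracellular vesicles, led with Slc26a4 and stood 9.22 above the other barcodes on the log2 scale in the I-PpoI library and 8.97 in the wild-type library. Guca2a, which encodes the peptide guanylin, held 120 CPM in I-PpoI and 48.2 CPM in wild-type intercalated cells, against 0.510 and 0.523 CPM in the other barcodes of the same libraries.

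Cells close to the threshold carried less of this signature. Of the I-PpoI cells, 4 had 2 to 4 UMIs of Atp6v1g3 and Atp6v0d2, none with Foxi1, and 38 had 10 or more, 35 of them with Foxi1. In the wild-type library 9 cells had 2 to 4 UMIs, none with Foxi1, and 51 had 10 or more, 41 of them with Foxi1. Just outside the rule, 18 I-PpoI and 26 wild-type barcodes had a single Atp6v1g3 UMI, 0 and 1 of them with Foxi1. A further 55 I-PpoI and 4 wild-type barcodes had at least 2 UMIs of Atp6v0d2 without Atp6v1g3, none with Foxi1. The C1q limit left out 6 I-PpoI barcodes, 5 with Foxi1, and 1 wild-type barcode, which had Foxi1.

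Intercalated cells made up 1.08% of kept I-PpoI barcodes (44 of 4091, exact Clopper-Pearson interval 0.783% to 1.44%) and 2.08% of kept wild-type barcodes (67 of 3217, 1.62% to 2.64%), a ratio of 0.516 (0.345 to 0.767). Among the distal cells alone (intercalated, principal and distal convoluted barcodes together) they were 43.1% in the I-PpoI library (44 of 102, 33.4% to 53.3%) and 35.1% in the wild-type library (67 of 191, 28.3% to 42.3%). These intervals overlapped, so the lower I-PpoI share was not seen with this denominator. The principal barcodes in it were called by at least 3 UMIs of Aqp2 and numbered 15 in the I-PpoI and 57 in the wild-type library. The first ratio was 0.399 when no C1q UMI was allowed. It was 0.643 (0.402 to 1.02) without barcodes holding 10 or more UMIs of Aqp2 and Calb1.

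The promoter of a pump subunit gene and that of pendrin are shown because Foxi1 is known in mice to drive genes of the proton pump and of the anion exchangers. TGTTTAC is a core sequence bound by forkhead factors, and both strands were searched (TGTTTAC and GTAAACA). RefSeq promoter windows of the build GRCm38.p6 run from 250 bases before to 50 bases after the start of a gene, and 13 of 19 intercalated genes looked up had one. The Atp6v1b1 window is chr6:83742767-83743066 on the plus strand and the Slc26a4 window chr12:31559935-31560234 on the minus strand, both printed 5′ to 3′ along the gene, with the forkhead core in capitals.
Atp6v1b1: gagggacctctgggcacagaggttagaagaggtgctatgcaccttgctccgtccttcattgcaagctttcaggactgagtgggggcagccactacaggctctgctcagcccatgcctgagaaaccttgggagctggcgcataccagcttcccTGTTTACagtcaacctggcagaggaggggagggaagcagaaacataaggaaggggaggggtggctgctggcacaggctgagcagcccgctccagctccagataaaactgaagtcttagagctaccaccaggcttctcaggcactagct
Slc26a4: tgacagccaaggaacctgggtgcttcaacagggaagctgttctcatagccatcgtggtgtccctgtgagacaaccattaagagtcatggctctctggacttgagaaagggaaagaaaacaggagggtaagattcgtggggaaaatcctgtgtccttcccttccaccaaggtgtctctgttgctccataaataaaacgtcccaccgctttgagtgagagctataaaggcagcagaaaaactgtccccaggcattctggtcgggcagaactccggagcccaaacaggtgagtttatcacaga
The core occurred in the window of Atp6v1b1 and in that of none of the other 12 genes (Foxi1, Atp6v1g3, Atp6v0a4, Slc26a4, Aqp6, Hmx2, Dmrt2, Kit, Rhcg, Car12, Hepacam2 and Tfcp2l1). Of all 32851 windows 3.65% held it. A match here is a description of the letters and says nothing of binding.

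Type A and type B cells were first told apart by Slc4a1 and Slc26a4. The type B markers used here, Slc26a4 included, were chosen for type B or non-A non-B intercalated cells. These 2 kinds were not told apart, and both are called type B. In the I-PpoI library 14 cells had Slc4a1 alone, 9 had Slc26a4 alone, 0 had both and 21 had neither, and in the wild-type library the counts were 19, 29, 5 and 14. Type A was thus 60.9% of the I-PpoI cells with 1 of the 2 genes (14 of 23, 38.5% to 80.3%) and 39.6% of the wild-type cells (19 of 48, 25.8% to 54.7%), with overlapping intervals. Cells with neither gene were 47.7% of I-PpoI cells (32.5% to 63.3%) and 20.9% of wild-type cells (11.9% to 32.6%).

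A second split, chosen after seeing the data, used the other genes of the types. Cells were called type A where UMIs of Aqp6, Kit (a receptor tyrosine kinase), Dmrt2 (a transcription factor) and Adgrf5 (an adhesion receptor) were more than those of Slc4a9 (the exchanger AE4), Insrr (an alkali-sensing receptor), Hmx2 (a homeobox factor) and Oxgr1 (the oxoglutarate receptor), and type B in the reverse case. By this split the I-PpoI library had 34 type A and 8 type B cells, and the wild-type library had 26 and 32. Type A was 81.0% of the typed I-PpoI cells (65.9% to 91.4%) and 44.8% of the typed wild-type cells (31.7% to 58.5%). Leaving out Oxgr1, which was higher in type A than in type B in both libraries, gave 83.3% in I-PpoI cells and 52.9% in wild-type cells. Type B then numbered 7 cells in the I-PpoI and 24 in the wild-type library. The levels of Kit and Dmrt2 themselves differed between the libraries, and the part of this in the split was not tested. Of the 21 I-PpoI cells without Slc4a1 and Slc26a4, 19 were type A by the other genes, with a median of 15114 UMIs. Of the 14 such wild-type cells, 2 were type A, 5 type B and 7 had none of the genes, these 7 with a median of 961 UMIs.

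**Figure D1:**
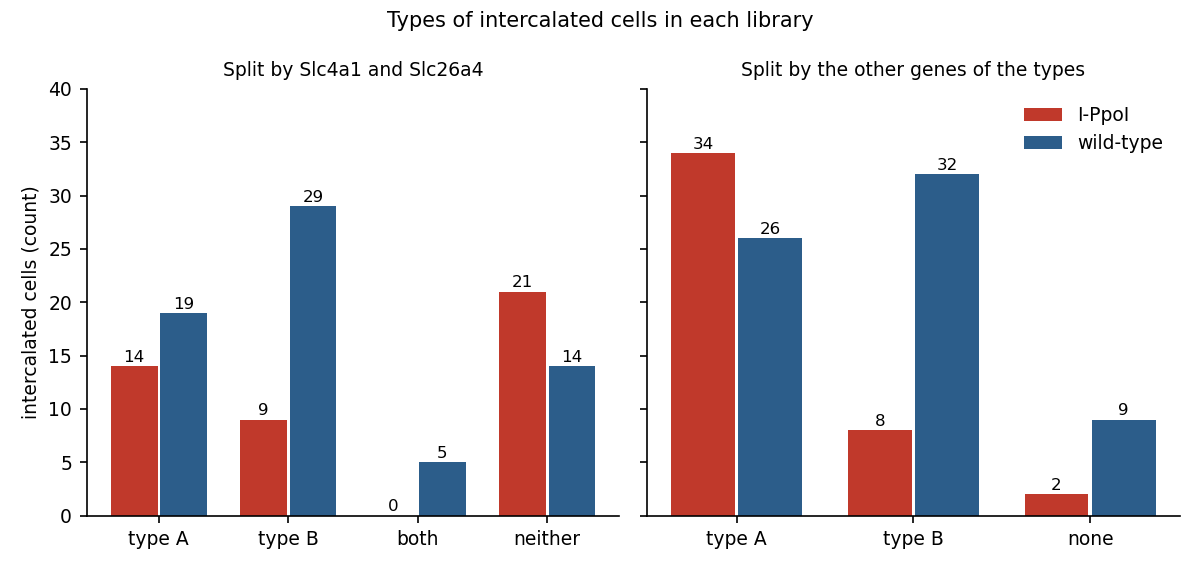
Number of intercalated cells (y axis) of each type in the I-PpoI and wild-type libraries, split by Slc4a1 and Slc26a4 (left) and by the other genes of the types (right). The I-PpoI library had 21 cells with neither exchanger gene, and 34 of its 44 cells were type A by the other genes.

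Within type A cells defined without it, Slc4a1 was lower in the I-PpoI library. Its UMIs were found in 14 of 34 I-PpoI cells (41.2%, 24.6% to 59.3%), with a median of 0 and a maximum of 15 per cell, and in 23 of 26 wild-type cells (88.5%, 69.8% to 97.6%), with a median of 26 and a maximum of 80. The level was 123 CPM in I-PpoI and 923 CPM in wild-type type A cells, a ratio of 0.133 (0.105 to 0.167). Median depth was alike in these cells, at 17229 UMIs in the I-PpoI and 18225 in the wild-type library. Among type A cells with at least 10000 UMIs, 13 of 26 cells of the I-PpoI library, against 19 of 19 of the wild-type one, had Slc4a1. Thinned to 5000 UMIs, the share was 34.5% of 29 I-PpoI cells against 95.2% of 21 wild-type cells, and 0 of 260 I-PpoI and 0 of 191 wild-type endothelial cells had a UMI. Without barcodes holding Aqp2 and Calb1 RNA the ratio was 0.0646 (0.0489 to 0.0843), with 12 of 31 I-PpoI against 12 of 15 wild-type cells positive.

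Other genes of type A cells were measured in the same cells, where Aqp6, Kit and Dmrt2 are genes of the split itself, so that their levels there are a description. Aqp6 stood at 863 CPM in the I-PpoI library and 1270 CPM in the wild-type library, a ratio of 0.680 (0.612 to 0.754), or 0.434 (0.378 to 0.499) without barcodes holding Aqp2 and Calb1 RNA. Dmrt2 stood at 221 CPM in I-PpoI cells and 77.2 CPM in wild-type cells, a ratio of 2.87 (2.10 to 3.96), or 1.89 (1.17 to 3.19) without those barcodes. Kit had a ratio of 1.53 (1.32 to 1.79) with all type A cells and 0.614 (0.507 to 0.747) without them, so its direction within the type was not stable. Foxi1 was 386 CPM in I-PpoI and 241 CPM in wild-type type A cells, a ratio of 1.60 (1.32 to 1.95). Slc26a7, another chloride-bicarbonate exchanger of acid-secreting cells, had 1 UMI in I-PpoI and 34 UMIs in wild-type type A cells, a ratio of 0.0314 (0.000773 to 0.187), and the wild-type UMIs lay in 7 cells.

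Type B cells numbered only 8 in the I-PpoI library, against 32 in the wild-type library. Of the wild-type ones, 5 were without Slc26a4 and were called type B on 1 to 3 UMIs of Oxgr1 or Hmx2. These 5 cells had 1 to 26 UMIs of Atp6v1g3. Slc26a4 was found in 8 of 8 I-PpoI cells and in 27 of 32 wild-type cells, at 578 CPM in I-PpoI and 940 CPM in wild-type cells, a ratio of 0.615 (0.507 to 0.743). Without barcodes holding Aqp2 and Calb1 RNA, which left 4 I-PpoI and 21 wild-type cells, the ratio was 1.47 (1.14 to 1.87), so the direction turned. Slc4a9 had a ratio of 0.975 (0.688 to 1.36) in type B cells, Insrr one of 0.568 (0.398 to 0.795) and Hmx2 one of 0.555 (0.420 to 0.724), all 3 being genes of the split. Without the same barcodes the ratio of Slc4a9 was 2.55 (1.56 to 4.15), that of Hmx2 1.06 (0.656 to 1.65) and that of Insrr 0.618 (0.312 to 1.13), on 13 to 33 UMIs in I-PpoI cells. Over all intercalated cells, Slc26a4 was at 150 CPM in the I-PpoI library and 447 CPM in the wild-type library, a ratio of 0.336 (0.278 to 0.404). Insrr and Hmx2 had ratios of 0.286 (0.203 to 0.394) and 0.287 (0.217 to 0.373) over all cells. The part of the smaller share of type B cells in the values over all cells was not tested.

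**Figure D2:**
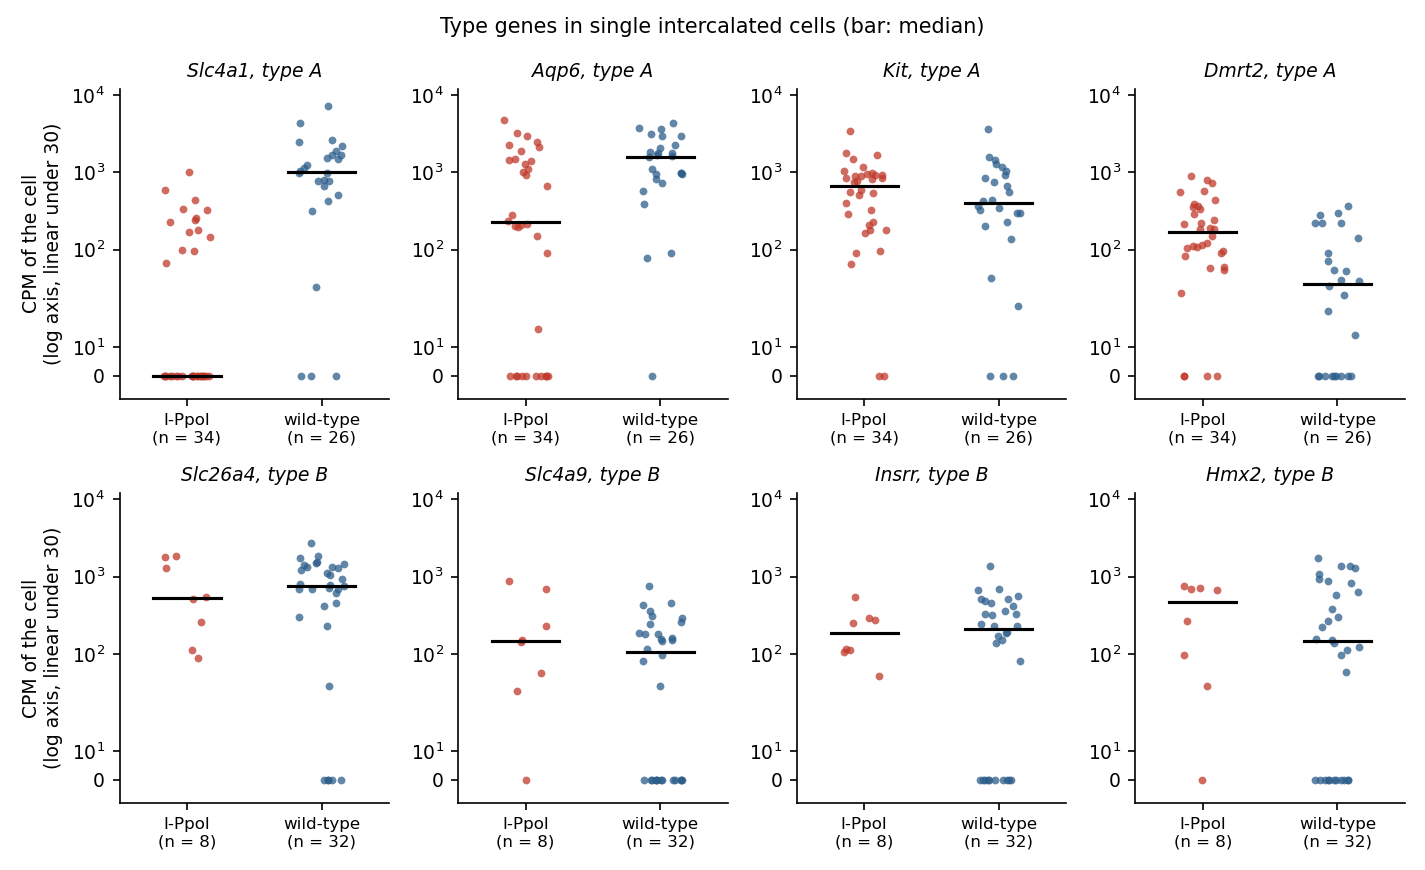
CPM of 8 type genes in single cells (y axis, log scale and linear under 30) of type A (top) and type B (bottom), by the split on the other genes of the types, for the I-PpoI (left) and wild-type (right) libraries, with a bar at the median. The Slc4a1 median is 0 in the 34 I-PpoI type A cells and 1007 CPM in the 26 wild-type ones, while most type B cells of both libraries carry Slc26a4.

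Type A and type B cells, split by Slc4a1 and Slc26a4, were also compared within each library, which gives the contrast a second look in separate cells. Of 7701 genes with enough UMIs, 10.5% in the I-PpoI library were past 2-fold higher and 7.01% past 2-fold lower in type A than in type B. The same shares in the wild-type library were 16.6% and 5.86%, and 4.17% of the genes passed 2-fold the same way in both. On the type A side, Lrrc31 had 27 UMIs in type A and 0 in type B in the I-PpoI library, and 29 and 0 in the wild-type library. Mme, the membrane peptidase neprilysin, had 270 and 20 UMIs in I-PpoI and 344 and 20 in wild-type type A and type B cells. The named type A genes also included 2610016A17Rik, Dmrt2, Ccdc148 and Btc (the growth factor betacellulin). Fxyd3 and Nos1ap were named as well but rested on few I-PpoI UMIs, 7 and 6 in type A and 0 in type B cells, and the I-PpoI interval of Nos1ap held no difference (lower log2 bound −0.23). Aqp4 and Elf5, which were higher in type A too, are markers of principal cells. In the I-PpoI library 1 cell with 419 UMIs of Aqp2 held 83 of 93 UMIs of Aqp4 and 33 of 39 of Btc. The wild-type cell with most Btc (26 of 77 UMIs) had 329 UMIs of Aqp2. The part of principal cell RNA in the values of Aqp4, Elf5 and Btc was not tested.

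On the type B side the named genes also had the same direction in both libraries, as the naming rule asks. Igfbp5, an insulin-like growth factor binding protein, had 2 UMIs in type A and 52 in type B cells of the I-PpoI library, and 1 and 268 in the wild-type library. Syt7, a synaptotagmin of regulated secretion, had 0 UMIs in type A and 16 in type B cells of the I-PpoI library, and 0 and 122 in the wild-type library. Dcn, which encodes the matrix proteoglycan decorin and is best known from fibroblasts, had 0 and 17 UMIs in I-PpoI and 0 and 36 in wild-type type A and type B cells, and 16 of the 17 I-PpoI UMIs came from 1 cell. Hmx2 had 0 and 68 UMIs in I-PpoI and 18 and 283 UMIs in wild-type type A and type B cells. Ank, 4930469K13Rik, Lsamp, Enpp2, Sh2d4b and Tmem163 completed the named type B genes. Over all I-PpoI intercalated cells, 1 cell with 221 UMIs of Aqp2 held 36 of 57 UMIs of Igfbp5 and 10 of 16 of Syt7. The same cell held all 12 UMIs of 4930469K13Rik. In the wild-type library Igfbp5, Syt7 and 4930469K13Rik were found in 26, 16 and 5 cells. The I-PpoI cell with most Enpp2 (3 of 9 UMIs) and Sh2d4b (7 of 30 UMIs) was type A by the second split.

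Across the transcriptome of all intercalated cells, 8732 genes had at least 20 UMIs over both libraries. Of these, 9.67% (844 genes) were past 2-fold higher and 5.04% (440 genes) past 2-fold lower in I-PpoI than in wild-type cells, and 61.3% had a log2 ratio above 0. The median log2 ratio of all genes was 0.17 and became 0.00 when CPM was taken without mitochondrial genes, which gave 603 genes higher and 611 lower (49.7% higher, against 65.7% with all UMIs). As a mean over single cells the median was 0.35. Principal barcodes (15 in the I-PpoI and 57 in the wild-type library) and endothelial barcodes (460 in the I-PpoI and 720 in the wild-type library) serve as comparison, and their medians over all genes were −0.14 and −0.094. The principal barcodes held 470 UMIs of Aqp2 and 1832 of Calb1 in the I-PpoI library, against 5849 and 1139 in the wild-type library. Their median log2 ratio was −2.14 over 10 principal markers and 1.97 over 6 connecting tubule markers. The part of connecting tubule RNA in this comparison was not tested. Endothelial barcodes also held fibroblast and mural RNA, with a median log2 ratio of 5.74 over 7 markers and 6721 UMIs of Col1a1 in I-PpoI against 55 UMIs in wild-type barcodes, and its part in the comparison was not tested. The medians over all genes are the level against which the lists below are to be read, and the lists were chosen with results of these data known. A list median covers the list genes with at least 20 UMIs in the group of cells named, so the genes covered can differ between groups.

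Proton pump subunits other than the rule genes were slightly lower in I-PpoI cells, with none past 2-fold. The lists of both sectors leave out the rule genes Atp6v1g3 (V1) and Atp6v0d2 (V0). Of the V1 sector, 10 of 12 genes were measured, 3 were higher and 7 lower, and the median log2 ratio was −0.26. Of the V0 sector and its accessory proteins, 9 of 11 genes were measured, all 9 were lower, and the median was −0.33. Atp6v1b1, the V1 subunit typical of intercalated cells, had 264 CPM in I-PpoI and 331 CPM in wild-type cells, a ratio of 0.797 (0.680 to 0.932). Atp6v0a4, its V0 counterpart, had 471 CPM in I-PpoI and 588 CPM in wild-type cells, a ratio of 0.802 (0.713 to 0.901). Atp6v1c2, another V1 subunit, was the lowest of the V1 sector, with 210 CPM in I-PpoI and 398 CPM in wild-type cells, a ratio of 0.527 (0.446 to 0.621). It was also lower in type A than in type B cells, by log2 ratios of −0.74 in the I-PpoI and −1.49 in the wild-type library. The part of the type shares in the pump values was not tested. In endothelial cells the medians were −0.24 for V1 and −0.32 for V0, and in principal cells they were −0.02 and −0.26, each to be read against the median over all genes in the same cells. Of the rule genes, Atp6v1g3 was at 3162 CPM in I-PpoI and 3250 CPM in wild-type cells, a ratio of 0.973 (0.928 to 1.02). By the second split its ratio was 1.46 (1.37 to 1.56) in type A and 0.709 (0.653 to 0.768) in type B cells. Atp6v0d2 was at 632 CPM in I-PpoI and 537 CPM in wild-type cells, a ratio of 1.18 (1.05 to 1.31). Its ratio was 1.47 (1.27 to 1.70) in type A and 0.939 (0.770 to 1.14) in type B cells. Both genes chose the cells, so these values are a description.

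Among acid-base transport genes, 19 of 22 were measured, 6 were higher and 13 lower in I-PpoI cells, with a median of −0.42. None was past 2-fold higher and 5 were past 2-fold lower, namely Slc4a1, Slc26a4, Slc26a7, Slc4a4 (a sodium-bicarbonate cotransporter) and Rhbg. Over all intercalated cells Slc4a1 was at 89.2 CPM in the I-PpoI library and 535 CPM in the wild-type library, a ratio of 0.167 (0.132 to 0.209). The ammonia channel Rhbg was at 245 CPM in I-PpoI and 526 CPM in wild-type cells, a ratio of 0.465 (0.400 to 0.540). Within type B cells Rhbg was seen in 2 of 8 I-PpoI and in 22 of 32 wild-type cells. Rhcg, the other ammonia channel of the list, was at 301 CPM in I-PpoI and 531 CPM in wild-type cells, a ratio of 0.568 (0.493 to 0.652). Car2, the cytosolic carbonic anhydrase that supplies protons and bicarbonate, had a ratio of 0.955 (0.901 to 1.01), and the membrane-bound Car12 one of 0.600 (0.545 to 0.660). By the second split Car2 had ratios of 1.09 (1.01 to 1.17) in type A and 0.648 (0.570 to 0.734) in type B cells. Those of Car12 were 0.776 (0.675 to 0.890) in type A and 0.639 (0.552 to 0.736) in type B cells. Atp1b1, the beta subunit of the sodium pump, was on the other side with a ratio of 1.14 (1.09 to 1.19).

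Genes shared by both types were mixed. Of 13 measured, 4 were higher and 9 lower, with a median of −0.33 and 1 past 2-fold lower (Rhbg). The higher ones included Foxi1, with a ratio of 1.51 (1.30 to 1.75), the transcription factor Tfcp2l1 with 1.26 (1.17 to 1.36) and Hepacam2 with 1.27 (1.05 to 1.53). Bsnd, which encodes barttin, was lower, at 92.4 CPM in I-PpoI and 158 CPM in wild-type cells, a ratio of 0.585 (0.451 to 0.753). Over all cells Kit had a ratio of 1.67 (1.45 to 1.93), Dmrt2 one of 3.85 (2.83 to 5.31) and Aqp6 one of 0.903 (0.815 to 0.999). The direction of Aqp6 turned to a log2 ratio of 0.10 as a mean over single cells.

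**Figure D3:**
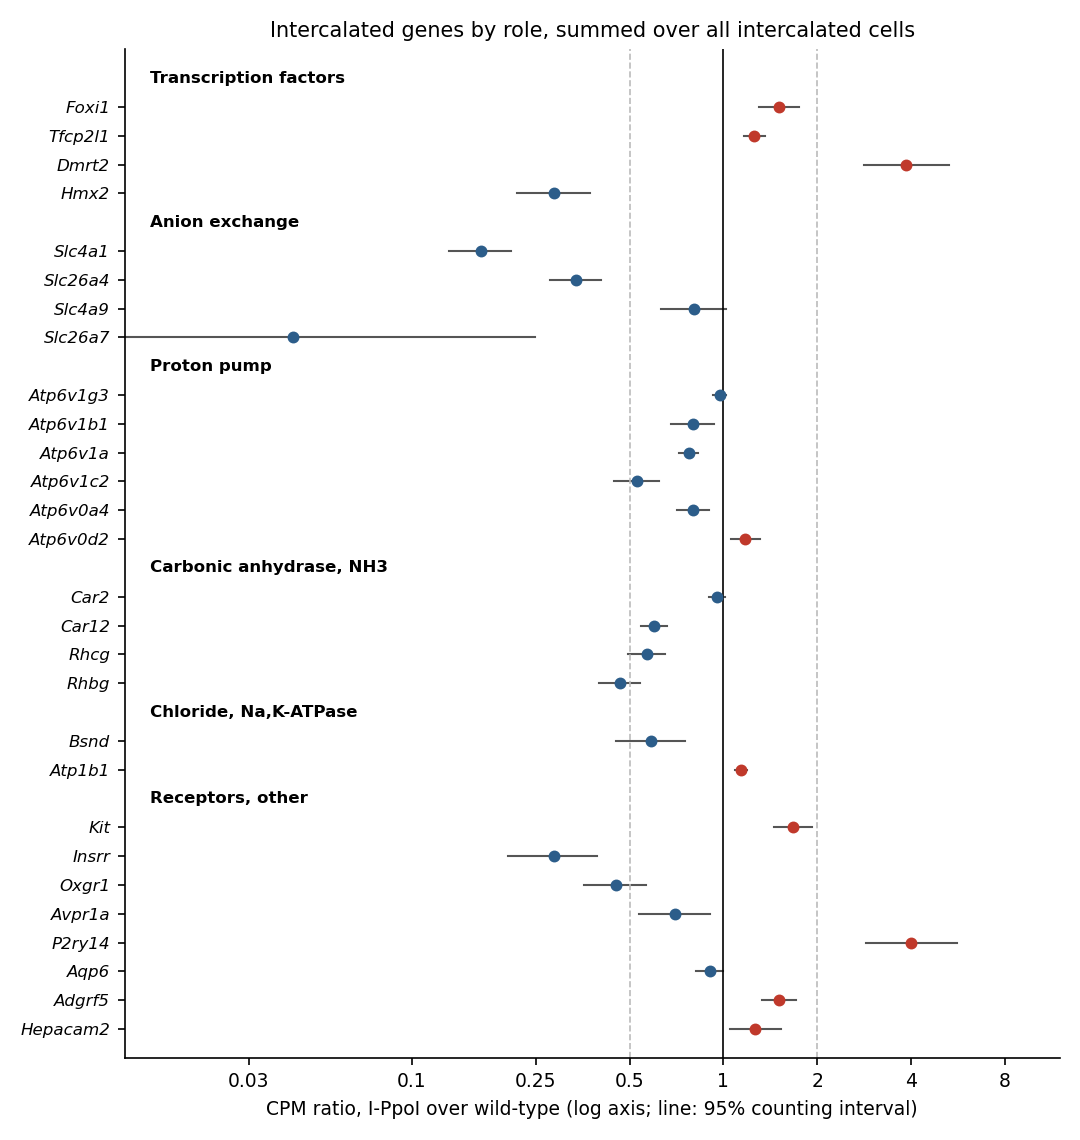
CPM ratio of I-PpoI over wild-type intercalated cells (x axis, log scale) for genes grouped by role, with 95% counting intervals as lines, red above and blue below 1. Slc4a1 (0.167), Slc26a4 (0.336) and Slc26a7, whose interval runs off the left edge, lie far left of the pump subunits, and Dmrt2 (3.85) and P2ry14 (3.99) lie far right. The values pool type A and type B cells, whose shares differ between the libraries.

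Genes of epithelial injury and repair were higher in I-PpoI intercalated cells. Of 22 genes on the list 19 were measured, 17 were higher and 2 lower, 13 were past 2-fold higher and 0 past 2-fold lower, and the median log2 ratio was 2.22. The same list had medians of 0.97 in principal (17 genes) and 1.06 in endothelial cells (20 genes). Spp1, the secreted phosphoprotein osteopontin, was at 11281 CPM in I-PpoI and 1469 CPM in wild-type cells, a ratio of 7.68 (7.32 to 8.06). Clu, the chaperone clusterin, had a ratio of 7.24 (6.68 to 7.85), and Cldn4, a tight junction claudin, one of 7.87 (6.58 to 9.46). Krt8 and Krt18, the keratin pair of simple epithelia, had ratios of 5.34 (4.59 to 6.25) and 4.66 (4.05 to 5.38). Krt19 had 223 UMIs in 20 I-PpoI cells and 1 UMI in 1 wild-type cell, a ratio of 316 (56.1 to 12528), and 59 of the I-PpoI UMIs lay in the 2 cells with only 2 UMIs of the marker genes. Its log2 ratio was 7.72 in intercalated cells and 7.22 in distal convoluted barcodes. Sox9, a transcription factor of epithelial repair, had 37 UMIs in 11 I-PpoI cells and 0 in wild-type cells, which is at least 17.5-fold higher when 3 UMIs, the limit that a count of 0 allows, are put in for the wild-type cells.

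Lcn2, the iron-binding defence protein also measured as a marker of kidney injury, was at 1502 CPM in I-PpoI and 128 CPM in wild-type cells, a ratio of 11.7 (10.0 to 13.8). It was found in 26 I-PpoI and 11 wild-type cells, and 1 cell held 66.5% of the wild-type UMIs. In the I-PpoI library 481 of the 1431 Lcn2 UMIs lay in 1 cell that only just met the rule, with 1 UMI of Atp6v1g3, 1 of Atp6v0d2 and 0 of Foxi1. The log2 ratio, 3.55 with all cells, was 2.92 with at least 3 UMIs of both marker genes and 8.53 without barcodes holding Aqp2 and Calb1 RNA. After thinning to 5000 UMIs, Lcn2 was found in 45.9% of I-PpoI and 15.6% of wild-type intercalated cells, against 5.00% of I-PpoI and 0 of 191 wild-type endothelial cells, which allows a share of up to 1.57%. Spp1 was found in 100% of thinned I-PpoI and 68.9% of thinned wild-type intercalated cells, but also in 52.3% of I-PpoI and 8.38% of wild-type endothelial cells. Free RNA in the droplets was not removed, and its part in the Spp1 values was not tested.

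Spp1, Krt18 and Krt19 were higher in both types. In type A cells Spp1 was at 12370 CPM in I-PpoI and 879 CPM in wild-type cells, a ratio of 14.1 (13.0 to 15.3). In type B cells it was at 8484 CPM in I-PpoI and 2240 CPM in wild-type cells, a ratio of 3.79 (3.53 to 4.06). Of the 2024 I-PpoI type B UMIs of Spp1, 1143 lay in 1 cell, which also held 1155 UMIs of Calb1. The median over single type B cells was 5902 CPM in the I-PpoI and 2318 CPM in the wild-type library. Krt19 was seen in 14 of 34 I-PpoI and 0 of 26 wild-type type A cells, and in 5 of 8 I-PpoI and 0 of 32 wild-type type B cells. Krt18 had a ratio of 2.60 (2.18 to 3.11) in type A and 10.9 (8.29 to 14.4) in type B. The summed list was at 17131 CPM in I-PpoI cells under 10000 UMIs, 25897 CPM from 10000 to 30000 and 26531 CPM above, and in wild-type cells at 5503, 5208 and 7241 CPM. Barcodes with 10 or more UMIs of Aqp2 and Calb1 were 8 of 44 in the I-PpoI and 23 of 67 in the wild-type library, and the list median stayed between 2.0 and 2.49 over all alternatives, the one without these barcodes included.

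Klf4, a zinc finger transcription factor, led the genes named by size. It had 455 UMIs in 32 of 44 I-PpoI cells and 1 UMI in 1 of 67 wild-type cells, which gives a ratio of 644 (115 to 25503). Thinned to 5000 UMIs it was found in 64.9% of I-PpoI and 0 of 45 wild-type intercalated cells, which allows a share of up to 6.67%, while endothelial cells, which express it, had it in 48.5% of cells in the I-PpoI library and 49.2% in the wild-type library. It was seen in 25 of 34 I-PpoI and 0 of 26 wild-type type A cells, and in 6 of 8 I-PpoI and 0 of 32 wild-type type B cells. Cebpd, an acute-phase transcription factor, had 585 UMIs in 36 I-PpoI cells and 32 UMIs in 13 wild-type cells, a ratio of 25.9 (18.1 to 38.2). Plac8 had 303 UMIs in 33 I-PpoI cells and 17 in 8 wild-type cells, a ratio of 25.2 (15.5 to 43.9).

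The genes named by size also included Muc4, Pigr, S100a14, Sprr2f and Sprr1a. Muc4, a membrane mucin, had 70 UMIs in 22 I-PpoI cells and 0 in wild-type cells, at least 33.0-fold higher. Pigr, the receptor that carries immunoglobulin A across epithelia, had 156 UMIs in 20 I-PpoI cells and 5 in 4 wild-type cells, a ratio of 44.2 (18.5 to 138). S100a14 had 67 UMIs in 12 I-PpoI cells and 1 UMI in wild-type cells, a ratio of 94.9 (16.5 to 3803). Sprr2f and Sprr1a, small proline-rich proteins of squamous epithelia, rested on few cells. Sprr2f had 237 UMIs in 6 I-PpoI cells, and 0 in wild-type cells, at least 112-fold higher. Of these UMIs 141 (59.5%) came from 1 cell at the lower end of the rule, with 1 UMI of Atp6v1g3, 1 of Atp6v0d2, 0 of Foxi1 and of the type genes, and 97 of Calb1, a marker of the connecting tubule. Sprr1a had 113 UMIs in 3 I-PpoI cells and 0 in wild-type cells, at least 53.3-fold higher.

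The remaining named genes that were higher were Adamts1, Grem1, Dcdc2a, Tgm2, Gem and Hpcal4. Adamts1, a secreted metalloproteinase, had 105 UMIs in 17 I-PpoI cells and 1 UMI in wild-type cells, a ratio of 149 (26.1 to 5928). Gem, a small GTPase, had 116 UMIs in 21 I-PpoI cells and 5 in 4 wild-type cells, a ratio of 32.9 (13.7 to 103). Dcdc2a, a doublecortin-domain protein, had 77 UMIs in 10 I-PpoI cells and 2 in 2 wild-type cells, a ratio of 54.5 (14.6 to 458). Hpcal4, a calcium sensor, had 36 UMIs in 13 I-PpoI cells and 0 in wild-type cells, at least 17-fold higher. Grem1, an antagonist of bone morphogenetic proteins, had 49 UMIs in only 3 I-PpoI cells and 0 in wild-type cells, at least 23.1-fold higher. Of the 75 I-PpoI UMIs of Tgm2, a transglutaminase, 89.3% lay in 1 cell, against 2 UMIs in wild-type cells, a ratio of 53.1 (14.2 to 447).

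**Figure D4:**
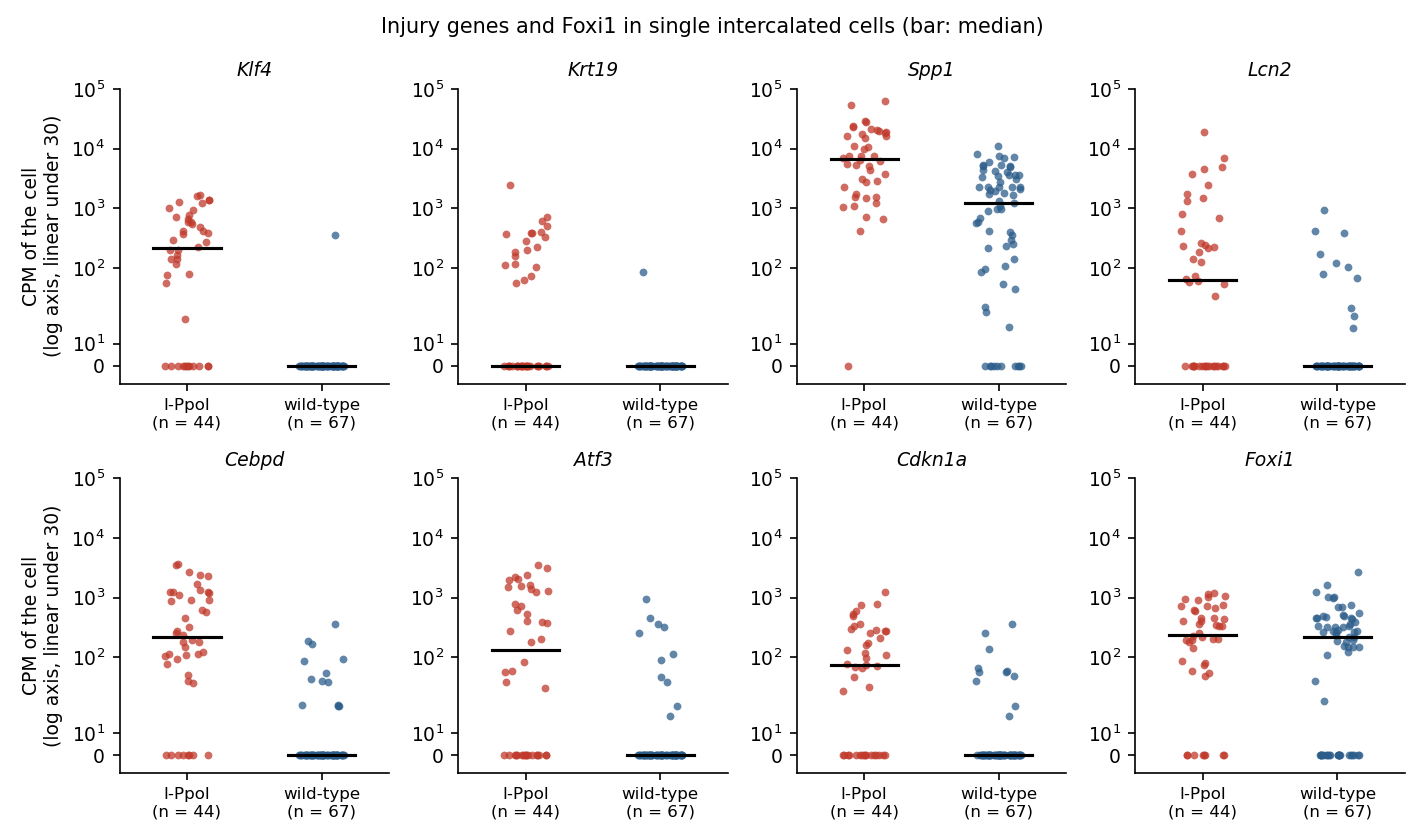
CPM of 7 injury and stress genes and of Foxi1 in single intercalated cells (y axis, log scale and linear under 30) of the I-PpoI (left, 44 cells) and wild-type (right, 67 cells) libraries, with a bar at the median. Klf4 and Krt19 are at 0 in all but 1 wild-type cell each, while the Foxi1 medians, 239 CPM in I-PpoI and 220 CPM in wild-type cells, lie side by side.

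Immediate early and heat shock genes were higher too. All 17 genes on the list were measured, 16 were higher and 13 past 2-fold higher, with a median of 2.43, against 0.43 in principal and 1.66 in endothelial cells. Atf3, a stress-induced transcription factor, was at 810 CPM in I-PpoI and 69.7 CPM in wild-type cells, a ratio of 11.6 (9.38 to 14.6). Fosb and Ier3 had ratios of 13.3 and 13.2, and Fos, Jun and Egr1 had 5.77, 5.30 and 6.19. The heat shock genes in the list differed less, with 1.75 (1.51 to 2.03) for Hspa1a and 0.804 (0.737 to 0.877) for Hspa8, the constitutive chaperone.

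In the NF-kB response list 13 of 16 genes were measured, 11 were higher and 2 lower, 9 past 2-fold higher and 1 past 2-fold lower. The median was 2.31, against 0.49 in principal (9 genes) and 0.27 in endothelial cells (15 genes). Socs3, an inhibitor of cytokine signalling, had a ratio of 15.8 (9.44 to 28.2), Nfkbiz one of 13.6 (7.08 to 29.3) and Nfkbia, the inhibitor of NF-kB, one of 4.96 (3.92 to 6.34). Icam1, an adhesion molecule for leukocytes, had 44 UMIs in 13 I-PpoI cells and 0 in wild-type cells, at least 20.8-fold higher. Tnfaip2 went the other way, with 18.9 CPM in I-PpoI and 60.1 CPM in wild-type cells, a ratio of 0.315 (0.178 to 0.529), as did Sod2, the mitochondrial superoxide dismutase, with 0.555 (0.482 to 0.637).

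Of the 14 genes of innate defence in intercalated cells 9 were measured, 8 were higher and 7 past 2-fold higher. The median was 1.99, against −0.80 in principal (5 genes) and 2.37 in endothelial cells (12 genes). Lcn2 belongs to this list as well as to the injury list. P2ry14, the receptor for UDP-glucose through which intercalated cells are known to call in leukocytes in mice, was found in 34 I-PpoI and 13 wild-type cells, at 148 CPM in I-PpoI and 37.1 CPM in wild-type cells, a ratio of 3.99 (2.87 to 5.63). Rnase4, an antimicrobial ribonuclease, had a ratio of 11.3 (4.02 to 44.1) on 32 UMIs in I-PpoI and 4 UMIs in wild-type cells. The chemokine Cxcl10 had 25 UMIs in 5 I-PpoI cells and 0 in wild-type cells, at least 11.8-fold higher, while all 22 UMIs of Cxcl2 came from 1 I-PpoI cell. Defb1, a constitutive defensin, had a ratio of 1.22 (1.16 to 1.28).

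Interferon-stimulated genes were sparse, with 12 of 24 measured. All 12 were higher in I-PpoI cells and 8 past 2-fold higher, with a median of 1.61. The medians were −0.10 in principal (12 genes) and −1.54 in endothelial cells (24 genes). As a mean over single cells the list median was 0.53, against 0.35 for all genes. Ifi27 was at 118 CPM in I-PpoI and 22.2 CPM in wild-type cells, a ratio of 5.29 (3.51 to 8.20), and Psmb8, an immunoproteasome subunit, had a ratio of 9.91 (4.19 to 28.5). Below the limit of 20 UMIs, Ifit2 and Ifit3 had 0 UMIs in I-PpoI cells and 5 and 6 UMIs in wild-type cells. Of the 14 MHC class I presentation genes 10 were measured, 8 were higher and 2 past 2-fold higher. The median was 0.61, against −0.57 in principal (10 genes) and −0.99 in endothelial cells (14 genes). H2-D1, a class I heavy chain, had a ratio of 2.26 (1.89 to 2.71), H2-K1, another one, 1.59 (1.36 to 1.86), and B2m, the light chain, 1.60 (1.26 to 2.02).

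p53 target genes were mixed. Of 22 genes 16 were measured, 13 were higher and 3 lower, 5 past 2-fold higher and 1 past 2-fold lower. The median was 0.67, against 0.49 in principal (12 genes) and 0.20 in endothelial cells (21 genes). Cdkn1a, the cell cycle inhibitor p21, was at 163 CPM in I-PpoI and 11.1 CPM in wild-type cells, a ratio of 14.6 (8.60 to 26.8), in 28 I-PpoI and 11 wild-type cells. Pmaip1, a cell death gene, had 46 UMIs in I-PpoI cells and 1 UMI in wild-type cells, a ratio of 65.1 (11.1 to 2628). Mdm2, which marks p53 for breakdown, had a ratio of 1.64 (1.04 to 2.60), and Ccng1 one of 0.424 (0.295 to 0.597). Of 19 genes of double-strand break signalling and repair 15 were measured, 11 were higher, 2 past 2-fold higher and 1 past 2-fold lower, with a median of 0.27, close to the 0.17 of all genes. Atr, a damage kinase, had 20 UMIs in I-PpoI and 6 UMIs in wild-type cells, a ratio of 4.72 (1.83 to 14.4), and Nbn, a break sensor, had 7 UMIs in I-PpoI and 29 UMIs in wild-type cells, a ratio of 0.342 (0.126 to 0.797). For apoptosis genes 13 of 15 were measured, with a median of 0.40, and for the unfolded protein response 12 of 13, with a median of 0.20.

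**Figure D5:**
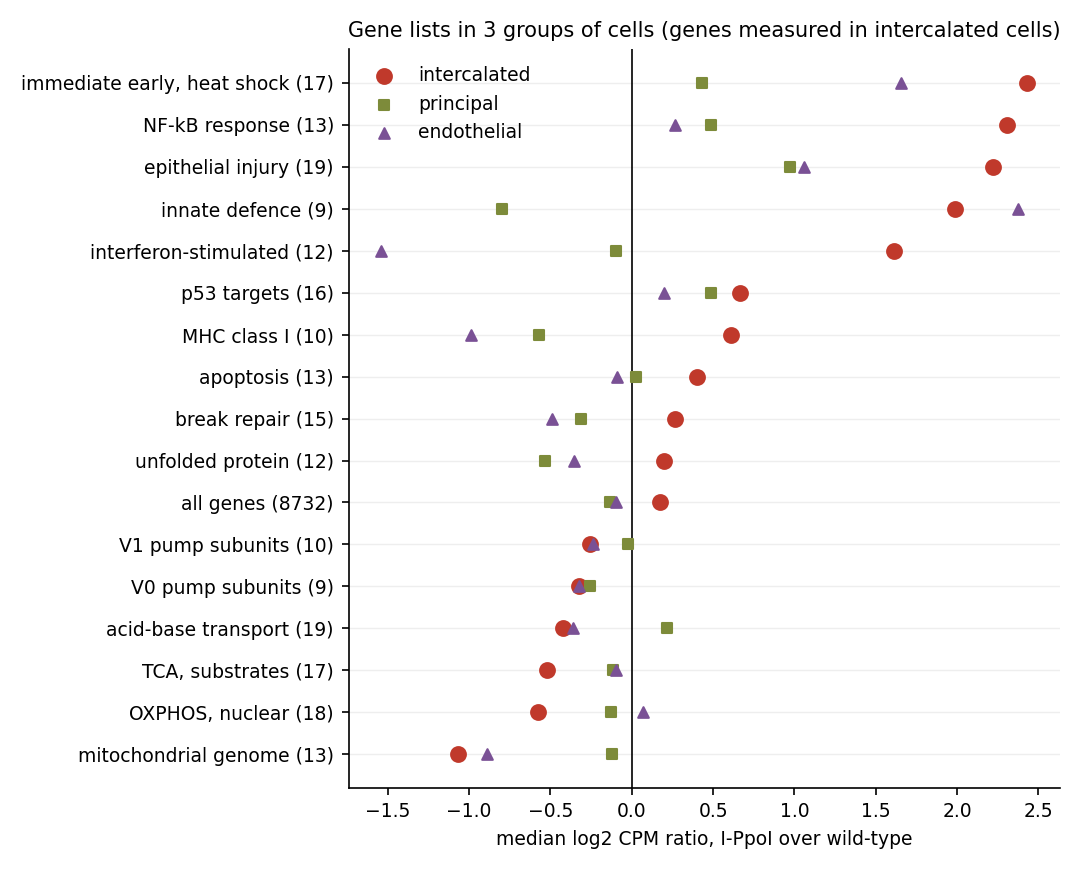
Median log2 CPM ratio of I-PpoI over wild-type cells (x axis) for gene lists (rows, with the number of genes measured in intercalated cells) in intercalated, principal and endothelial cells. Each median covers the genes measured in that group of cells. Immediate early (2.43), NF-kB (2.31) and injury genes (2.22) lie far right of all genes (0.17) in intercalated cells, and oxidative phosphorylation (−0.58) and mitochondrially encoded genes (−1.07) lie left of it.

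Genes of mitochondrial energy metabolism were lower in I-PpoI intercalated cells, which are rich in mitochondria in the normal kidney. All 18 nuclear genes of oxidative phosphorylation were measured and all 18 were lower, none past 2-fold, with a median of −0.58, against −0.12 in principal and 0.07 in endothelial cells. Atp5g1, a subunit of the ATP synthase, had a ratio of 0.508 (0.470 to 0.548). Of 17 genes of the citric acid cycle and substrate use 16 were lower, 3 past 2-fold (Mdh1, Fh1 and Pfkm), with a median of −0.52. Ldha, which makes lactate, was the only one higher, at 515 CPM in I-PpoI and 297 CPM in wild-type cells, a ratio of 1.74 (1.52 to 1.99). Of 13 mitochondrially encoded genes 12 were lower and 8 past 2-fold lower, with a median of −1.07, against −0.12 in principal and −0.89 in endothelial cells. The mitochondrial share also sets which barcodes are kept, and with a limit of 25% the last median was −0.64.

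RNA of neighbouring distal cells was present in the intercalated barcodes and differed between the libraries. The 10 principal cell markers summed to 3041 CPM in I-PpoI and 8074 CPM in wild-type intercalated cells, none of them at 0, with single cells between 0 and 17242 CPM in the I-PpoI and 0 and 41470 CPM in the wild-type library. The 6 connecting tubule markers summed to 12092 CPM in I-PpoI and 16901 CPM in wild-type cells. Barcodes with 10 or more UMIs of Aqp2 and Calb1 numbered 0 of 10 I-PpoI against 0 of 28 wild-type cells under 10000 UMIs, and 7 of 10 I-PpoI against 17 of 18 wild-type cells at 30000 UMIs or more. Proximal tubule markers summed to 11.5 CPM in I-PpoI cells, with 7 of 10 at 0, and 231 CPM in wild-type cells, with none at 0. Macrophage markers summed to 51.4 CPM in I-PpoI cells, with 2 of 8 at 0, and 4.45 CPM in wild-type cells, with 4 of 8 at 0, against 8462 CPM in the other I-PpoI and 834 CPM in the other wild-type barcodes. Endothelial markers summed to 7.35 CPM in I-PpoI and 90.4 CPM in wild-type cells. Their part in the differences of the lists was not tested.

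Klk1, Fxyd4, Gstm2, Akr1b3 and Apela were among the genes named as lower. Klk1, a kallikrein of the connecting tubule, had 786 UMIs in I-PpoI and 8892 UMIs in wild-type cells, a ratio of 0.125 (0.116 to 0.135), and 1 cell held 79.4% of the I-PpoI UMIs. Fxyd4, a principal cell regulator of the sodium pump, was at 421 CPM in I-PpoI and 2166 CPM in wild-type cells, a ratio of 0.194 (0.175 to 0.216), but its log2 ratio was 2.95 without barcodes holding Aqp2 and Calb1 RNA and 0.18 after thinning. Gstm2, a glutathione transferase with a ratio of 0.197 (0.157 to 0.244), and Akr1b3, an aldose reductase with 0.178 (0.123 to 0.249), had log2 ratios of 0.027 and 0.23 without those barcodes. The deepest wild-type cell held 47.7% of the wild-type Gstm2 UMIs and 68.6% of the wild-type Akr1b3 UMIs, and without the deepest cell of each library the log2 ratios were −1.44 and −0.97. Apela, a peptide hormone, was at 59.8 CPM in I-PpoI and 383 CPM in wild-type cells, a ratio of 0.156 (0.117 to 0.206), within a log2 range of −3.08 to −2.27 over all alternatives.

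The genes named as lower that follow had at most 8 UMIs in I-PpoI cells, and some lay largely in 1 wild-type cell. Acot3, an acyl-CoA thioesterase, had 8 UMIs in 5 I-PpoI cells and 108 UMIs in 28 wild-type cells, a ratio of 0.105 (0.0442 to 0.214). Of these wild-type cells, 17 were type B and 7 type A by Slc4a1 and Slc26a4. The transcript 1110019B22Rik had 0 UMIs in I-PpoI cells and 40 UMIs in 15 wild-type cells, so it was at most 0.106 times as high in I-PpoI cells against a floor of 3 UMIs. Ranbp3l had 6 UMIs in I-PpoI and 132 UMIs in wild-type cells, Sbspon 4 UMIs in I-PpoI and 68 UMIs in wild-type cells. Psat1, an enzyme of serine synthesis, had 1 UMI in I-PpoI and 36 UMIs in wild-type cells. Hs3st3b1, a heparan sulfate sulfotransferase, had 0 UMIs in I-PpoI cells and 25 in 8 wild-type cells. Aldh1a3, a retinal dehydrogenase, had 0 UMIs in I-PpoI cells and 124 in wild-type cells, and Gsdmc2, a gasdermin, 0 in I-PpoI and 23 UMIs in wild-type cells, but all of the wild-type UMIs of each gene came from 1 cell. For both it was the deepest wild-type cell, with 123548 UMIs, 1261 of Aqp2 and 13 of Atp6v1g3. It also held 48.5% of the wild-type UMIs of Ranbp3l, 52.9% of Sbspon, 66.7% of Psat1 and 52% of Hs3st3b1. Over all alternatives the highest log2 ratios of these genes were −3.03, −2.39, −2.38 and −3.75, in this order. The part of principal cell RNA in these values was not tested.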

How the data were processed

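Single-cell RNA of kidney cortex was measured in 1 I-PpoI and 1 wild-type library. The authors deposited raw UMI counts, as whole numbers for each barcode and gene, made with Cell Ranger against mm10, per the submitters' processing notes and file headers. The notes name version 3.1 and the headers 6.0.2, and the notes name Seurat 3 for later steps. The barcodes deposited each held at least 500 UMIs.

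UMIs were summed over the intercalated cells of a library and given as CPM with exact Poisson intervals, shares with exact Clopper-Pearson intervals and ratios with exact conditional binomial intervals (95%). A log2 ratio had 0.5 UMIs added to each sum and needed 20 UMIs over both libraries. A gene absent from 1 library was set against a floor of 3 UMIs summed over its cells, and a share of 0 against 3 cells. Principal barcodes had at least 3 UMIs of Aqp2, distal convoluted ones at least 2 of Slc12a3, and endothelial ones at least 3 of 4 endothelial genes. Intercalated barcodes were left out of these groups. Free RNA was not removed. Scrublet in scanpy 1.11.5 called 29 of 4091 I-PpoI and 3 of 3217 wild-type kept barcodes, so the top 4% of scores (173 and 134) were left out as an alternative only.

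Named genes were the first 15 each way by the interval bound nearest to 1, leaving out mitochondrial, ribosomal, haemoglobin and rule genes and genes with more CPM in the other barcodes. The 20 selective genes were ranked by the smaller log2 ratio over the other barcodes, and the type genes were the first 10 each way by the smaller log2 ratio of the libraries. List genes served as examples, and some genes of the lists are counted but not reported here by name. The members, lists and rules were chosen with earlier results of these data known. The splits by other type genes, the limit of 10000 UMIs and the removal of barcodes with 10 UMIs of Aqp2 and Calb1 were added after seeing the data. Calculations used Python 3.11.15, NumPy 2.4.6, SciPy 1.17.1 and pandas 2.3.3, were tested on simulated data, and gave no p-values.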

Additional observations from a re-analysis of the deposited data

How the results depend on the processing

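No paired analysis was possible because each group has 1 library, and for the same reason no replicate could be left out. Depth limits the sparse genes: 8732 of the genes in the files reached 20 UMIs, and type B rests on 8 I-PpoI cells. Over 14 alternatives for genes, 227 of 244 list medians stayed within the interval over their members, and 1052 of 1252 values of 97 genes within their counting interval, with 12 values of 7 genes turned in direction among genes whose interval left out a ratio of 1. Another 4 genes with an interval that held 1 (Atp6v1g3, Car2, Slc4a9 and Timp2) also crossed it, in 7 values. The causes were not tested.

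Genes past 2-fold higher and lower numbered 78 and 62 after thinning to 1000 UMIs (517 genes left), 1603 and 244 without barcodes holding Aqp2 and Calb1 RNA, and 431 and 210 with at least 50 UMIs. As a mean over single cells 1850 were higher. The type A share of I-PpoI cells was 81.0% by the other type genes and 83.3% without Oxgr1, against 60.9% by Slc4a1 and Slc26a4.

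After thinning, the list medians were −0.58 (V1), −0.45 (V0), −0.81 (oxidative phosphorylation), −0.96 (citric acid cycle) and −0.66 (unfolded protein). Without barcodes holding Aqp2 and Calb1 RNA they were −0.40 (V1), −0.45 (V0), −0.80 (oxidative phosphorylation), −1.71 (mitochondrially encoded), 3.52 (immediate early) and 0.97 (apoptosis). With CPM outside mitochondrial genes V1 was −0.43 and V0 −0.50. As a mean over single cells V0 was −0.067 and break repair 1.00. A mitochondrial limit of 25% gave −0.64 for mitochondrially encoded genes, and 3 UMIs of both marker genes gave 2.43 for interferon-stimulated genes, whose lowest median was 0.53 as a mean over single cells.

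Among genes whose interval left out 1, the direction turned after thinning for Aqp6 (log2 0.38), Cryab (1.15), Fxyd4 (0.18) and Krt7 (−0.80), without barcodes holding Aqp2 and Calb1 RNA for Akr1b3 (0.23), Cryab (1.18), Fxyd4 (2.95) and Gstm2 (0.027), as a mean over single cells for Aqp6 (0.10), Cryab (0.33) and Vcam1 (−1.12), and without the deepest barcode for Cryab (0.27).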
